A study of Gallus gallus with 2 samples.

Results

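The genes of the Wnt pathway examined here are its ligands, receptors, inhibitors and targets, picked by symbol from the deposited table. A gene belonged to the set when its symbol began with WNT, FZD, SFRP, DKK, RSPO or TCF7, or was FRZB, WIF1, LRP5, LRP6, AXIN1, AXIN2, LEF1, LGR4, LGR5, LGR6, RNF43, ZNRF3, NOTUM or NKD1. This rule found 57 of 23842 genes. RNA came from basilar papillae (BPs), the auditory epithelium of birds, of male chicks at posthatch day 1, kept as free-floating explants. The post-SM6 explants were treated with streptomycin (SM), an aminoglycoside that kills hair cells (HCs), for 48 h in medium that also held penicillin, then washed and cultured for 6 h more, while the SM0 explants were taken before SM exposure. In both groups the tissue around the sensory epithelium was removed with thermolysin, and 50 BPs were pooled into 1 library. There is therefore no replicate check and no p-value, and these libraries hold no explants cultured for as long without SM, so SM, culture time and differences between pools of chicks cannot be told apart.

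Wnt proteins are secreted, lipid-modified ligands that bind Frizzled receptors together with the co-receptors LRP5 and LRP6. In the canonical branch this stops the destruction complex, built on the scaffold AXIN, from degrading beta-catenin, which then enters the nucleus and acts with TCF/LEF factors on target genes. In the non-canonical branches Frizzled receptors act without beta-catenin, for example in planar cell polarity, which aligns the hair bundles of neighbouring HCs. In the neonatal mouse cochlea, canonical Wnt signaling promotes division of supporting cells (SCs), and Lgr5 marks a set of SCs that can form HCs.

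Expression is given as TPM, the relative abundance of a gene's transcripts corrected for their length, so levels of different genes can be compared. TPM keeps no sequencing depth, and no counting interval can be given. Of the 57 Wnt genes, 45 reached 1 TPM in at least one library. The other 12 stayed below 1 TPM in both, and WNT3, WNT2B and WNT8A among them were listed at 0 in both. Changes are log2 ratios of post-SM6 over SM0 after 0.1 was added to each TPM, a scale that understates the change of low genes. By a fold of 1.3, 21 of the 45 genes were higher at post-SM6, 9 were lower and 15 lay within the fold. The study used this fold on normalized read counts, together with a p-value limit, a read minimum and a further ranking method. Those were not applied here, so these calls are not the differentially expressed genes of the study. Among the 13321 genes of at least 1 TPM in either library, 23.9% were called higher and 23.3% lower by the same fold. By a fold of 2, 11 Wnt genes were higher and 4 were lower, or 24.4% and 8.89%, against 9.56% and 7.83% of all genes. The share of lower Wnt genes was thus near that of all genes. The median log2 change was 0.25 over the 45 Wnt genes and -0.02 over all genes.

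Some of these genes entered through a single library, which fixed their direction. WNT11, RSPO3 and SFRP5 reached 1 TPM only at post-SM6, and FZD5 and TCF7 only at SM0. Among the 40 Wnt genes that reached 1 TPM in each library, 18 were higher and 7 lower, or 45.0% and 17.5%, against 21.4% and 21.0% of 12107 genes chosen in the same way. The split also depended on scaling. When TPM were scaled so that the median SC marker did not differ, all genes shifted by -0.30 on the log2 scale, 13 of 44 Wnt genes were higher and 15 were lower. These were 29.5% and 34.1% of the Wnt genes, against 14.4% and 45.3% of all genes in that scaling. The scaling rests on the median of 10 markers whose log2 changes ranged from -1.47 to 1.66. Among them are LFNG at 1.66 and JAG1 at 0.79, Notch genes that the study lists as tending to be upregulated. The scaling was not repeated without them.

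**Figure D1:**
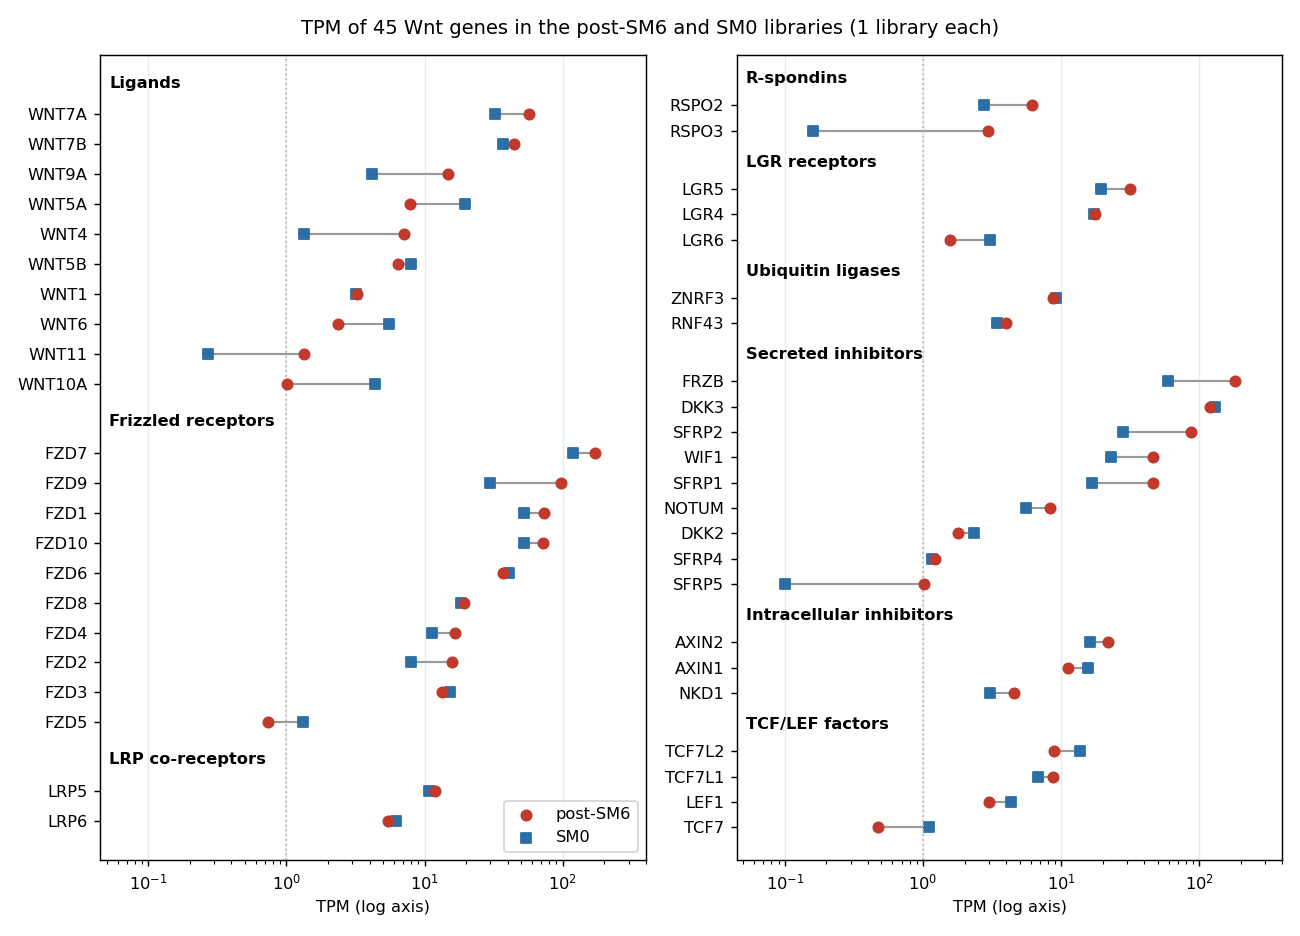
TPM (log axis) of the 45 Wnt genes of at least 1 TPM in either library, grouped by role, with post-SM6 as red circles and SM0 as blue squares, 1 library each, and a dotted line at 1 TPM. FZD7, FRZB and DKK3 exceed 100 TPM in at least one library, and the widest gap is that of RSPO3, with 2.95 TPM at post-SM6 and 0.16 TPM at SM0.

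Markers of several cell types differed between the libraries, and their part in the Wnt values was not tested. Markers were called by the fold of 1.3, by which 23.9% of all genes were higher and 23.3% lower. Of 11 rows of HC markers, 11 were lower at post-SM6, and their summed TPM was 106 at post-SM6 and 673 at SM0. HC transcripts were still listed at post-SM6, although its label names only SCs: OTOF, the synaptic calcium sensor of HCs, had 21.5 TPM at post-SM6 and 162 TPM at SM0. SC markers differed less uniformly, with 5 higher and 3 lower of 10, or 50% and 30%, the latter near the share of all genes. Their median log2 change was 0.30, and their sums were 3948 TPM at post-SM6 and 4976 TPM at SM0. The sum was carried by TECTB, a protein of the tectorial membrane, with 2802 TPM at post-SM6 and 3950 TPM at SM0. The sum of all 10 thus pointed the other way from the median on which the scaling to SC markers rests. Without TECTB the other 9 markers came to 1146 TPM at post-SM6 and 1026 TPM at SM0, the same direction as that median. Markers of other cells were present too. The 12 fibroblast markers were higher in 12 of 12 cases (427 TPM at post-SM6 and 56.4 TPM at SM0 in sum), the leukocyte markers in 10 of 10 (149 TPM at post-SM6 and 43.9 TPM at SM0) and the cartilage markers in 7 of 10 tested (366 TPM at post-SM6 and 191 TPM at SM0). Endothelial markers were higher in 3 and lower in 1 of 5 tested, with sums of 27.9 TPM at post-SM6 and 38.9 TPM at SM0. Neuron and glia markers were lower in 6 of 8 tested (353 TPM at post-SM6 and 497 TPM at SM0), and erythrocyte markers in 3 of 3 tested (10.01 TPM at post-SM6 and 25.4 TPM at SM0). The neuron and glia sum was carried at post-SM6 by SOX10, within the fold at 267 TPM at post-SM6 and 211 TPM at SM0. Of the lower ones, NEFL had 42.8 TPM at post-SM6 and 139 TPM at SM0, and NEFM had 6.00 and 96.8 TPM. Among defining markers, STMN2 of neurons was listed at 0 at post-SM6, MATN1 of cartilage at 0 at SM0 (0.08 TPM at post-SM6), and HBE, HBBR and HBZ of the erythrocytes at 0 in both libraries. In such pooled tissue, fewer cells of a type and less RNA per cell cannot be told apart.

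Among the 19 ligands, single genes differed in both directions, and their summed TPM was 1.25 times as high at post-SM6 as at SM0. WNT7A and WNT7B, close relatives that signal through beta-catenin in many epithelia, were the most abundant. WNT7A had 56.7 TPM at post-SM6 and 32.4 TPM at SM0, a log2 change of 0.80. WNT7B had 44.3 TPM at post-SM6 and 37.1 TPM at SM0, within the fold of 1.3. Together they made up 69.4% of the ligand TPM at post-SM6 and 59.7% at SM0. The order of the pair turned round, with 1.28 TPM of WNT7A for each TPM of WNT7B at post-SM6 and 0.874 at SM0. A ratio within a library does not depend on how the library is scaled.

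Among the 10 ligands tested, 3 were higher by a fold of 2 or more, or 30%, against 9.56% of all genes. They did not start from the same level, and WNT11 reached 1 TPM only at post-SM6. WNT9A, which acts along the neural side of the developing chick BP, had 14.7 TPM at post-SM6 and 4.19 TPM at SM0, with a log2 change of 1.79. It held the third place among ligands at post-SM6 and rank 7 at SM0. WNT4, a ligand of kidney and gonad development, had 7.11 TPM at post-SM6 and 1.33 TPM at SM0. WNT11, which guides convergent extension movements in frog and fish embryos, had 1.34 TPM at post-SM6 and 0.27 TPM at SM0. Its log2 change was 1.96, but only 0.88 when 1 was added in place of 0.1.

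Another 3 of the 10 ligands tested were lower by a fold of 2 or more, or 30%, against 7.83% of all genes. WNT5A, the best known ligand of the planar polarity branch, had 7.81 TPM at post-SM6 and 19.6 TPM at SM0, a log2 change of -1.31. Its share of the ligand TPM was 5.36% at post-SM6 and 16.8% at SM0. The ratio of WNT9A to WNT5A was 1.88 at post-SM6 and 0.214 at SM0. WNT10A, which acts in the growth of skin appendages and teeth, had 1.01 TPM at post-SM6 and 4.35 TPM at SM0, a log2 change of -2.00. WNT6 had 2.36 TPM at post-SM6 and 5.54 TPM at SM0, a log2 change of -1.20. WNT10A and WNT6 are next to each other in the gene order of the RefSeq table of GRCg7b, and both were lower.

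The remaining ligands differed less or were barely listed. WNT5B, a relative of WNT5A, had 6.40 TPM at post-SM6 and 7.92 TPM at SM0, and was called lower only with TPM scaled to the SC markers. WNT1 had 3.22 TPM at post-SM6 and 3.17 TPM at SM0. Like WNT10A and WNT6, WNT3A and WNT9A are neighbours in the RefSeq order, but WNT3A had only 0.34 TPM at post-SM6 and 0.10 TPM at SM0. A neighbouring pair of WNT9B and WNT3 was at 0.02 TPM or less in both libraries. WNT2, WNT8B, WNT11B and WNT16 did not exceed 0.34 TPM in either. In sum, the ligands had 146 TPM at post-SM6 and 117 TPM at SM0.

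Among the 10 Frizzled receptors, which bind Wnt through a cysteine-rich domain, 6 were higher by a fold of at least 1.3 and FZD5 alone was lower. These were 60% and 10%, against 23.9% and 23.3% of all genes. FZD5 reached 1 TPM only at SM0, which fixed its direction. The median log2 change of the receptors was 0.46, against -0.02 for all genes. Their summed TPM was 518 at post-SM6 and 348 at SM0. When TPM were scaled to the SC markers, only FZD9 and FZD2 stayed higher, 3 were lower and the median was 0.17. These were 20% and 30%, against 14.4% and 45.3% of all genes, whose median was then -0.33. FZD9 had 97.6 TPM at post-SM6 and 29.6 TPM at SM0, a log2 change of 1.72, and was the only receptor higher by a fold of 2. It made up 18.9% of the Frizzled TPM at post-SM6 and 8.53% at SM0, which placed it at rank 2 at post-SM6 and rank 5 at SM0. FZD7 was the most abundant in both libraries, with 173 TPM at post-SM6 and 118 TPM at SM0, and its share of the Frizzled TPM was 33.4% at post-SM6 and 33.9% at SM0.

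FZD2 came closest to a fold of 2 without reaching it, with 15.9 TPM at post-SM6 and 7.97 TPM at SM0 and a log2 change of 0.99. FZD1 had 73.1 TPM at post-SM6 and 52.7 TPM at SM0, FZD10 had 71.6 and 52.1 TPM, and FZD4 had 16.6 and 11.3 TPM. These receptors lay between log2 changes of 0.46 and 0.54, close to the 0.55 of FZD7. Of the rest, FZD6, which has a known part in hair bundle orientation in the mouse together with FZD3, had 36.7 TPM at post-SM6 and 41.0 TPM at SM0. FZD3 had 13.4 TPM at post-SM6 and 15.3 TPM at SM0, FZD8 had 19.3 and 18.3 TPM, and FZD5 had 0.74 and 1.32 TPM. The ratio of FZD9 to FZD6 was 2.66 at post-SM6 and 0.722 at SM0.

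The co-receptors differed little. LRP5 had 12.0 TPM at post-SM6 and 10.8 TPM at SM0, and LRP6 had 5.48 TPM at post-SM6 and 6.20 TPM at SM0, with a log2 change of -0.18 that was -0.47 with TPM scaled to the SC markers. Both were far less abundant per length than the leading Frizzled receptors. The ubiquitin ligases ZNRF3 and RNF43, which remove Frizzled receptors from the cell surface, also stayed within the fold of 1.3. ZNRF3 had 8.73 TPM at post-SM6 and 9.17 TPM at SM0, and RNF43 had 3.98 TPM at post-SM6 and 3.42 TPM at SM0.

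R-spondins are secreted proteins that block these ligases by binding LGR receptors, and thereby raise the response to Wnt. RSPO2 had 6.17 TPM at post-SM6 and 2.75 TPM at SM0, a log2 change of 1.14. RSPO3 had 2.95 TPM at post-SM6 and 0.16 TPM at SM0. Its log2 change of 3.55 was the largest of the Wnt genes tested, and shifted to 1.77 or 4.12 when 1 or 0.01 was added to the TPM. RSPO1 had 0.84 TPM at post-SM6 and 0.17 TPM at SM0, and RSPO4 had 0.10 and 0.07 TPM. The R-spondins thus came to 10.1 TPM at post-SM6 and 3.15 TPM at SM0 in sum, low next to their receptors.

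Of the receptors, LGR5 had 31.3 TPM at post-SM6 and 19.5 TPM at SM0, a log2 change of 0.68. LGR4 had 17.5 TPM at post-SM6 and 17.4 TPM at SM0. LGR6 had 1.56 TPM at post-SM6 and 3.03 TPM at SM0, a log2 change of -0.92. The 3 receptors thus lay on different sides of the fold, and LGR5 led LGR4 by a ratio of 1.79 at post-SM6 and 1.12 at SM0. For each TPM of the LGR receptors there was 0.200 TPM of R-spondins at post-SM6 and 0.0789 TPM at SM0.

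Secreted inhibitors had 492 TPM at post-SM6 and 267 TPM at SM0 in sum, 1.84 times as much, against 1.49 times for the Frizzled receptors and 1.25 times for the ligands. Of 9 tested, 6 were higher and 0 lower by the fold of 1.3, and their median log2 change was 1.00. These were 66.7% and 0%, against 23.9% and 23.3% of all genes, whose median was -0.02. SFRP5, among the higher genes, reached 1 TPM only at post-SM6, which fixed its direction. With TPM scaled to the SC markers, 4 of 8 were higher and 2 were lower, with a median of 0.48. These were 50% and 25%, against 14.4% and 45.3% of all genes, whose median was then -0.33. The increase lay with the secreted Frizzled-related proteins, which carry a domain like that of the receptors and bind Wnt outside the cell. FRZB had 181 TPM at post-SM6 and 59.6 TPM at SM0, a log2 change of 1.60, and was more abundant at post-SM6 than 97.1% of all genes. SFRP2 had 87.8 TPM at post-SM6 and 28.0 TPM at SM0, and SFRP1 had 45.9 TPM at post-SM6 and 16.7 TPM at SM0.

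These 3 genes made up 64.0% of the secreted inhibitor TPM at post-SM6 and 39.1% at SM0. SFRP4, of the same family, had 1.23 TPM at post-SM6 and 1.16 TPM at SM0, and SFRP5 had 1.01 TPM at post-SM6 and 0.10 TPM at SM0. SFRP5 dropped below 1 TPM and out of the genes tested with the SC marker scaling and when the 10 most abundant genes were left out of the scaling. In the scaling without those 10 genes DKK2 was called lower, and the median of the 8 secreted inhibitors left was 0.75. The family together had 3.004 times the TPM at post-SM6 that it had at SM0. Measured within a library, it reached 0.612 TPM for each TPM of Frizzled receptors at post-SM6 and 0.304 at SM0. Against the ligands the same ratio was 2.18 at post-SM6 and 0.905 at SM0. These genes are also known from connective tissue and cartilage, whose markers were higher as given above (fibroblast 427 TPM at post-SM6 and 56.4 TPM at SM0 in sum, cartilage 366 and 191 TPM). Their part in the result was not tested.

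The other secreted inhibitors did not share one direction. WIF1, which binds Wnt directly through its own domain, had 45.9 TPM at post-SM6 and 22.9 TPM at SM0. Its log2 change of 1.00 was just past a fold of 2. NOTUM, the enzyme that removes the lipid from Wnt, had 8.24 TPM at post-SM6 and 5.60 TPM at SM0, a log2 change of 0.55. DKK3, a divergent Dickkopf protein that does not bind LRP6, had 119 TPM at post-SM6 and 130.2 TPM at SM0, so that FRZB replaced it as the leading secreted inhibitor. DKK2, which binds LRP5 and LRP6, had 1.78 TPM at post-SM6 and 2.34 TPM at SM0, and its log2 change of -0.38 was just inside the fold of 1.3. The row listed as DKK1, which RefSeq now calls DKK4, was listed at 0 at post-SM6 and had 0.17 TPM at SM0.

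**Figure D2:**
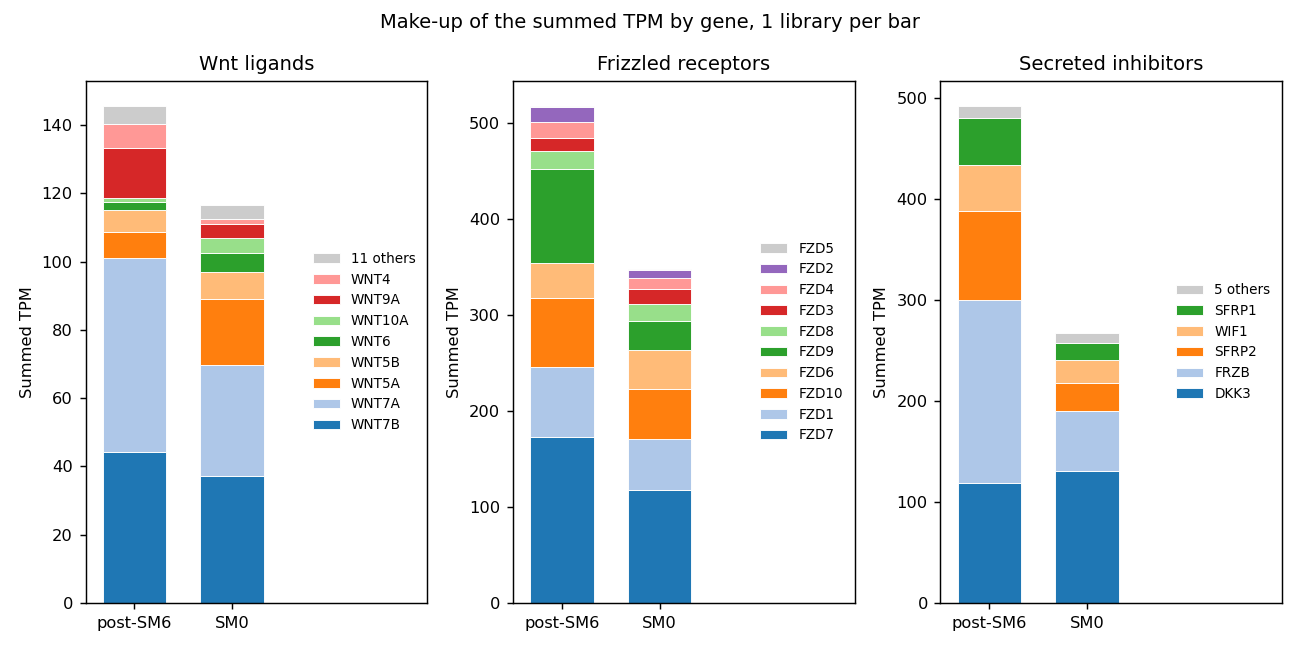
Summed TPM of the 19 Wnt ligands, 10 Frizzled receptors and 10 secreted inhibitors, stacked by gene, with 1 library per bar and post-SM6 to the left of SM0 in each panel. The secreted inhibitors reach 492 TPM at post-SM6 and 267 TPM at SM0, with taller blocks at post-SM6 for FRZB, SFRP2 and SFRP1 and nearly equal blocks for DKK3.

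Inside the cell, AXIN2 and NKD1, feedback inhibitors that are themselves targets of beta-catenin, were higher by a fold of 1.3. AXIN2 had 21.8 TPM at post-SM6 and 16.1 TPM at SM0, and NKD1 had 4.57 TPM at post-SM6 and 3.03 TPM at SM0. Their log2 changes of 0.43 and 0.58 were 0.13 and 0.29, inside the fold, when TPM were scaled to the SC markers. AXIN1, the scaffold that is not under this feedback, had 11.2 TPM at post-SM6 and 15.8 TPM at SM0, a log2 change of -0.48. The ratio of AXIN2 to AXIN1 was 1.94 at post-SM6 and 1.03 at SM0.

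Of the 4 TCF/LEF factors, which bind DNA for beta-catenin, 3 were lower by a fold of at least 1.3 and none was higher. Of all genes 23.3% were lower and 23.9% higher, and among 4 factors each gene weighs heavily. TCF7L2 had 8.82 TPM at post-SM6 and 13.7 TPM at SM0, a log2 change of -0.63. LEF1, also a target of the pathway, had 3.0 TPM at post-SM6 and 4.35 TPM at SM0, with a log2 change of -0.52. TCF7 had 0.47 TPM at post-SM6 and 1.11 TPM at SM0, and reached 1 TPM only at SM0. TCF7L1, which acts mostly as a repressor, had 8.80 TPM at post-SM6 and 6.75 TPM at SM0, and its log2 change of 0.38 was just inside the fold and passed it at 0.41 when TPM were scaled by the median ratio of genes. TCF7L1 and TCF7L2 were about equal at post-SM6, with a ratio of 0.998, against 0.492 at SM0.

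**Figure D3:**
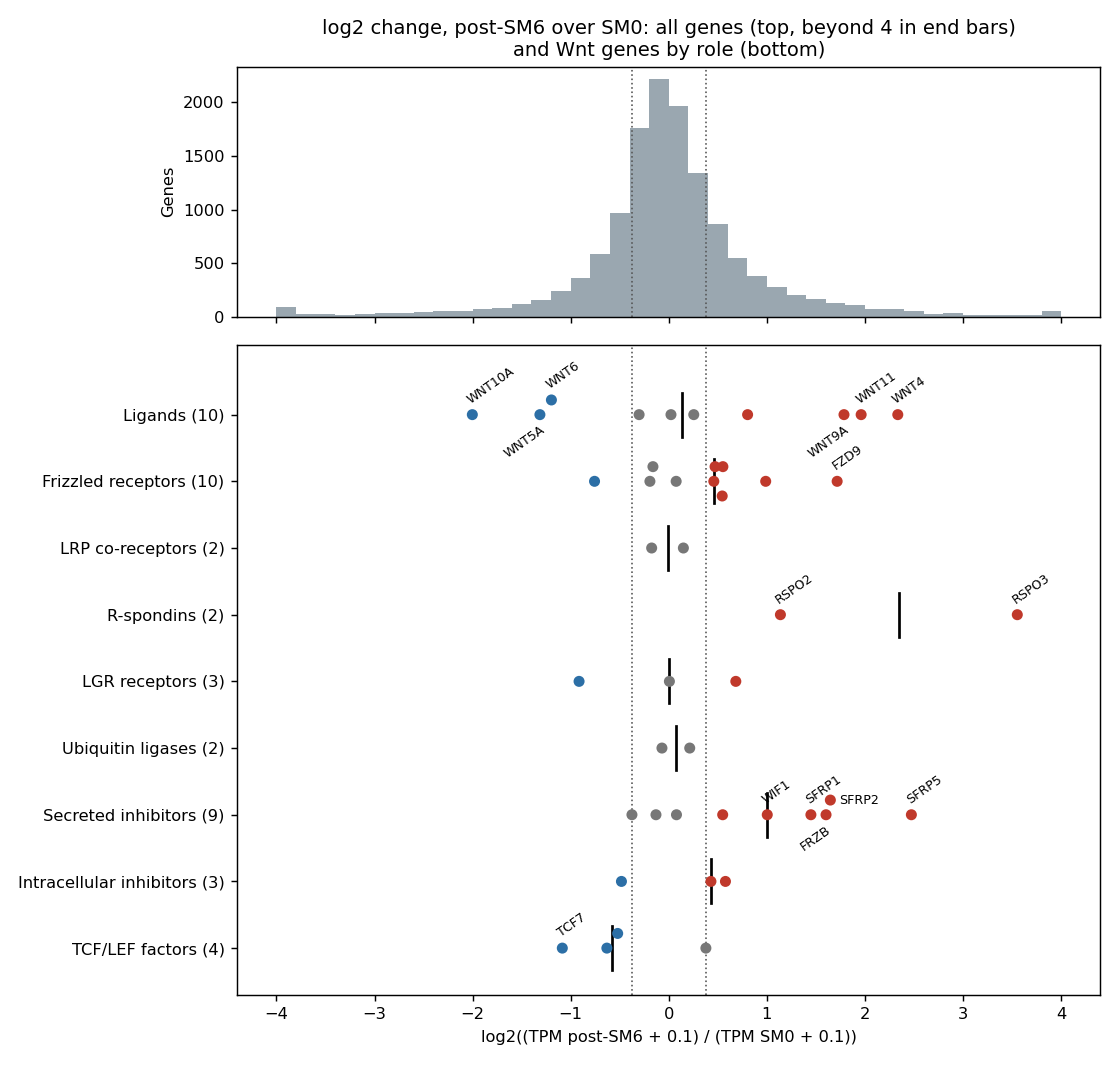
log2 change, post-SM6 over SM0, of all 13321 genes of at least 1 TPM in either library (top, number of genes) and of the 45 Wnt genes by role (bottom, number tested in parentheses). Red and blue points lie past a fold of 1.3 (dotted lines), black bars are medians, and genes past a fold of 2 are named. The secreted inhibitors have a median of 1.00 and the TCF/LEF factors one of -0.58.

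Other genes of the pathway were taken from 5 lists by role, and 81 of 90 measured genes reached 1 TPM in either library. Of the 81, 22 were higher and 15 lower by a fold of 1.3, and the median log2 change was 0.03. These shares of 27.2% and 18.5% were near the 23.9% and 23.3% of all genes. With TPM scaled to the SC markers, 14 were higher and 31 were lower, or 17.3% and 38.3%, against 14.4% and 45.3% of all genes. The single lists hold 13 to 20 genes each, so a few genes move their shares. Of 18 genes of the beta-catenin core, 1 was higher and 3 were lower, or 0 and 11 with the SC marker scaling. As deposited these were 5.56% and 16.7%, and the 61.1% lower in the SC marker scaling stands beside 45.3% of all genes, since that scaling shifted every gene down. CTNNB1, beta-catenin itself, had 503 TPM at post-SM6 and 442 TPM at SM0, and the kinase CSNK1A1 of the destruction complex had 216 and 242 TPM. APC2, a relative of the tumor suppressor APC, was lower by a fold of 2, with 4.54 TPM at post-SM6 and 9.29 TPM at SM0.

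Of 14 nuclear cofactors, 2 were higher and 4 lower, or 1 and 9 with the SC marker scaling. These were 14.3% and 28.6% as deposited, against 23.9% and 23.3% of all genes, and 7.14% and 64.3% in the SC marker scaling, against 14.4% and 45.3%. PYGO1, a coactivator of beta-catenin, had 2.45 TPM at post-SM6 and 5.34 TPM at SM0. TLE1, a Groucho corepressor that binds TCF factors, had 12.3 TPM at post-SM6 and 25.1 TPM at SM0, while AES, a short member of that family, had 253 and 221 TPM. The corepressor CTBP1 had 136 TPM at post-SM6 and 147 TPM at SM0. Of 16 genes of planar polarity and other non-canonical branches, 5 were higher and 4 lower, or 3 and 5 with the SC marker scaling. As deposited these were 31.2% and 25%, near the shares of all genes. In the SC marker scaling they were 18.75% and 31.25%, against 14.4% and 45.3% of all genes. PRICKLE2, a cytoplasmic polarity protein, was past a fold of 2 with 3.88 TPM at post-SM6 and 1.48 TPM at SM0.

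Of 13 genes for Wnt secretion and the cell surface, 5 were higher and 1 lower, with a median log2 change of 0.09, or 3 and 2 with a median of -0.20 in the SC marker scaling. As deposited these were 38.5% and 7.69%, against 23.9% and 23.3% of all genes. In the SC marker scaling they were 23.1% and 15.4%, against 14.4% and 45.3% of all genes, whose median was then -0.33. WLS, which carries Wnt to the membrane, had 204 TPM at post-SM6 and 164 TPM at SM0, within the fold. APCDD1, a membrane inhibitor, had 21.3 TPM at post-SM6 and 9.08 TPM at SM0. ADGRA2, a partner of WNT7A and WNT7B signaling in brain vessels of the mouse, had 1.48 TPM at post-SM6 and 0.31 TPM at SM0. GPC3, a glypican, had 0.44 TPM at post-SM6 and 2.63 TPM at SM0. ADGRA2, among the higher genes, reached 1 TPM only at post-SM6. GPC3, the lower gene as deposited, reached it only at SM0, so the direction of both was fixed.

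The list of 20 further target genes tested had 9 higher and 3 lower, or 45% and 15%, against 23.9% and 23.3% of all genes. Its median log2 change was 0.32, or 0.02 when TPM were scaled to the SC markers. In that scaling 35% were higher and 20% lower, against 14.4% and 45.3% of all genes, whose median was -0.33. WISP1, now called CCN4 and a matricellular protein induced by Wnt1 in mouse cells, had 27.8 TPM at post-SM6 and 3.17 TPM at SM0, a log2 change of 3.09. WISP2 of the same family had 2.51 TPM at post-SM6 and 0.46 TPM at SM0. It reached 1 TPM only at post-SM6, which fixed its direction. SP5, a transcription factor among the most direct targets of beta-catenin, had 10.2 TPM at post-SM6 and 3.44 TPM at SM0, a log2 change of 1.55. FGF9, a growth factor, had 8.07 TPM at post-SM6 and 2.42 TPM at SM0, and BIRC5, a mitotic protein, had 16.2 TPM at post-SM6 and 2.12 TPM at SM0. Lower by a fold of 2 were FGF18, with 1.18 TPM at post-SM6 and 7.33 TPM at SM0, and CD44, a hyaluronan receptor, with 18.6 TPM at post-SM6 and 103 TPM at SM0. The abundant targets JUN (1157 TPM at post-SM6 and 1169 TPM at SM0) and ID2 (907 and 964 TPM) differed little, and MYC was lower with 124 TPM at post-SM6 and 175 TPM at SM0. Many of these genes also answer to other pathways. Fibroblast and leukocyte markers were higher beside them, and their part in the values of WISP1, WISP2 and BIRC5 was not tested.

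**Figure D4:**
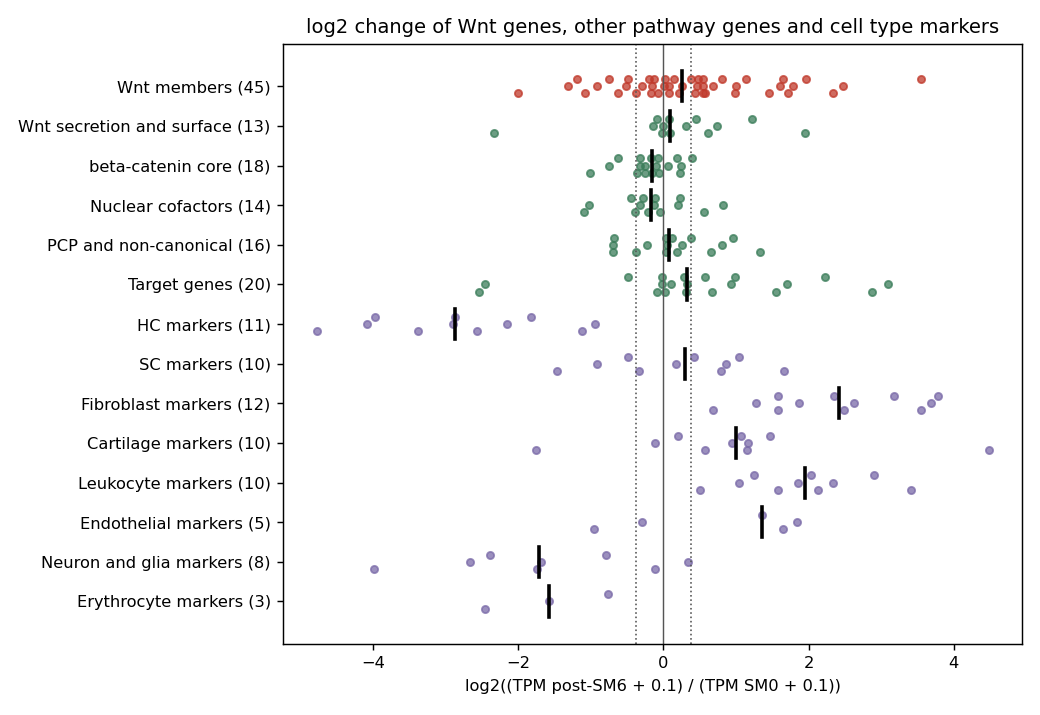
log2 change, post-SM6 over SM0, of the 45 Wnt genes (red), of 5 lists of other pathway genes (green) and of markers of 8 cell types (purple), with 1 point per gene of at least 1 TPM in either library, black bars at the medians and dotted lines at a fold of 1.3. The Wnt genes have a median of 0.25, between the medians of -2.88 for HC markers and 2.41 for fibroblast markers.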

How the data were processed

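Poly(A)-selected RNA of 50 pooled BPs per library was sequenced by the authors, who removed ribosomal reads with Bowtie2 (2.1.0), aligned the rest to GRCg6a with STAR (2.7.1a) and estimated expression with RSEM (1.3.0), per the submitters' processing notes. They deposited TPM, which divide by transcript length and scale each library to the same sum. The SM24 and SM48 libraries were not analysed here.

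Genes were matched by the symbols and gene IDs of the files, with current symbols and synonyms from RefSeq (GRCg7b), which was also used for gene order. WISP1, WISP2 and AES were matched from a short table of older symbols made after the files were seen. All 57 Wnt genes had a RefSeq entry. Sequences were not analysed here. Members and lists were chosen with earlier results of these data known.

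From the deposited TPM, log2 changes with a pseudocount of 0.1 were computed for the 13321 genes of at least 1 TPM in either library, and called at a fold of 1.3 or 2. Wnt genes that reached 1 TPM were given with both values, and the others by value or by their upper bound. Of 101 other pathway symbols in 5 lists, 90 were matched, and these were named when past a fold of 2 or at 100 TPM or more. With 1 library per time point no test was run. Alternatives were pseudocounts of 1 and 0.01, minimums of 0.5, 5 and no TPM, a fold of 2, and TPM rescaled by a median ratio over genes averaging 10 TPM or more, without the 10 most abundant genes, or to the SC markers. The code was tested on simulated data. Python 3.11.15, numpy 2.4.6, pandas 2.3.3 and matplotlib 3.10.9 were used.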

Additional observations from a re-analysis of the deposited data

How the results depend on the processing

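Each time point has 1 library, TPM keeps no depth, and genes near 1 TPM may rest on few reads, so the values describe these libraries. With TPM scaled to the SC markers, 21 Wnt genes higher and 9 lower by a fold of 1.3 became 13 and 15. These were 29.5% and 34.1%, against 14.4% and 45.3% of all genes. With a fold of 2 the counts were 11 and 4, or 24.4% and 8.89%, against 9.56% and 7.83% of all genes. With a minimum of 5 TPM, which left 32 genes, 4 were lower. The share of all genes was not computed at that minimum. For the other pathway genes, 22 higher and 15 lower became 14 and 31 with the SC marker scaling and 8 and 6 with a fold of 2. With the SC marker scaling these were 17.3% and 38.3%, against 14.4% and 45.3% of all genes. With a fold of 2 they were 9.88% and 7.41%, near the 9.56% and 7.83% of all genes. The other alternatives kept these counts within 1.5 times. The median of the Wnt genes was 0.25 and ranged up to 0.44 with the minimum of 5 TPM and down to -0.06 with the SC marker scaling, where the median of all genes was -0.33, against -0.02 as deposited. No Wnt gene past the fold of 1.3 changed direction under the scalings or pseudocounts. Of the 15 genes past a fold of 2, 14 stayed past a fold of 1.3 in these settings, as did 8 of the other 15 called genes. The exception, SFRP5, fell below 1 TPM and was no longer tested with the SC marker scaling and without the 10 most abundant genes. With the SC marker scaling, FZD1, FZD4, FZD7, FZD10, AXIN2, NKD1 and NOTUM moved inside the fold of 1.3, and FZD3, FZD6, LRP6, WNT5B, DKK2 and DKK3 were called lower.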
